A study of Mus musculus with 12 samples.

Results

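Lysosome and autophagy genes were examined in 3T3 mouse fibroblasts that had taken part in an extracellular vesicle (EV) exposure experiment measured by bulk RNA sequencing. The 44 genes were listed by function: the TFEB family of transcription factors, lysosomal membrane proteins, lysosomal proteases, glycosidases with a lipase and activator proteins, the proton pump, and the autophagy machinery with its cargo receptors. All 44 were found by symbol among the 32544 rows of the table, and 43 of them were among the 14279 genes with enough counts to be tested. Ctss, the cysteine protease cathepsin S of antigen-presenting cells, was the exception, with 0 to 4 counts a library.

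There were 4 groups of 3 libraries. Untreated fibroblasts received no vesicles. The other groups received EVs for 24 h, collected from MDA-MB-468, an established human breast cancer line, in its control form (shCon), with CRIPTO knocked down (shCr) or with CRIPTO overexpressed (CrOE). CRIPTO is a cell-surface co-receptor for ligands of the TGF-beta family; it was altered in the vesicle donors and not in the fibroblasts, so these libraries do not check the knockdown or the overexpression. The labels give no vesicle dose and no number of donor clones, and they do not say that the libraries of a group came from separate cultures, so p-values here measure the spread between libraries. RNA was bulk, so that fewer cells of a kind and less RNA per cell cannot be told apart.

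Lysosomes are acidic compartments in which hydrolases break down material delivered by endocytosis, including vesicles taken up from outside, and by autophagy. The proton pump acidifies them, and membrane proteins such as LAMP1 line them. In autophagy a double membrane forms around cytoplasm, ATG8 proteins are joined to its lipids by a conjugation system, and receptors such as p62 (Sqstm1) link cargo to the ATG8 proteins. TFEB, TFE3 and MITF are related transcription factors that bind E-box sequences in the promoters of many lysosomal genes; mTORC1 keeps TFEB in the cytoplasm, so the level of its transcript does not give its activity.

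The promoter sequences are shown first because the palindrome TCACGTGA, the core of the element that TFEB-family factors bind, occurred in 6 of the 37 listed genes for which RefSeq promoter windows (GRCm38.p6, 250 bases before to 50 after the transcription start) were at hand. It occurred in 1.12% of 27025 genes with such windows and in 2.04% of the 10225 of them that were tested here. Capitals mark the palindrome in the first 6 sequences and CACGTG in the last, all written 5′ to 3′ on the gene's strand and cut at most 20 bases after the start.
Mcoln1, chr8:3500269-3500538, plus strand: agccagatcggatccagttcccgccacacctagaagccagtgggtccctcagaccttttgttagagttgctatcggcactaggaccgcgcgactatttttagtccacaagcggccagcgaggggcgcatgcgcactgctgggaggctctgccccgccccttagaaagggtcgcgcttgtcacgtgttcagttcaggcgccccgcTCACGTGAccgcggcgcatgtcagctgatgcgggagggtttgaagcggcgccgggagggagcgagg
Ctsd, chr7:142387808-142388077, minus strand: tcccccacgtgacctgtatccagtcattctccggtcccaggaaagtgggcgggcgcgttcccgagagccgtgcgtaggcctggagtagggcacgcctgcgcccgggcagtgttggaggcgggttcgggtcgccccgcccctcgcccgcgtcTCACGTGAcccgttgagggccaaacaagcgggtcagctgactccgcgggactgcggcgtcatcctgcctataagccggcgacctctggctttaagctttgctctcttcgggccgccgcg
Ctsa, chr2:164833735-164833792, plus strand: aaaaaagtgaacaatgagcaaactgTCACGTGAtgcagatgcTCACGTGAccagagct
Gla, chrX:134601168-134601255, minus strand: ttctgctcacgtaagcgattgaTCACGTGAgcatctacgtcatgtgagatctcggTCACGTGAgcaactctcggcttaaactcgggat
Atp6v0d1, chr8:105566045-105566093, minus strand: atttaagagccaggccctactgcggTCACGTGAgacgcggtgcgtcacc
Atp6v1a, chr16:44139359-44139416, minus strand: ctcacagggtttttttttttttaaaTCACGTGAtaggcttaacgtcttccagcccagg
Lamp1, chr8:13159090-13159161, plus strand: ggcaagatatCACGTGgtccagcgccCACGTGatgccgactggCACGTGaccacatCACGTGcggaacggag
Ctsa and Gla each held 2 palindromes. Lamp1 held none, but had 4 copies of the shorter CACGTG within 61 bases before its start. The palindrome of Atp6v0d1 begins 4 bases before its RefSeq start. The stretch just after that start was not found in a transcript of the gene in the GENCODE M21 annotation, unlike those of the other genes printed. That start is thus less certain. The 7 letters TCACGTG, searched on both strands and overlapping the palindrome, were found in 11 of the 37 genes (29.7%) against 4.29% of all genes and 6.74% of tested genes, and CACGTG in 13 (35.1%) against 8.09 and 11.3%. The longer CLEAR element, which is the palindrome with a G before it and a C after it, was found in 0 of the 37, against 0.37% of all genes and 0.763% of tested genes. A wider list of 128 other genes of the same pathways, taken up again below, had windows for 101. Of these 6.93% held the palindrome, 20.8% TCACGTG and 22.8% CACGTG. The CLEAR element was found in 4 of them (3.96%): Cln3, Igf2r, Vps16 and Vps33a. Each match describes letters in a window; binding was not measured.

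Libraries held 25960054 to 37774020 estimated counts, and TMM scaling factors lay between 0.982 and 1.01. The 44 genes together took 1.71 to 1.85% of a library's counts without EVs, 2.18 to 2.20% with shCon EVs, 2.32 to 2.47% with shCr EVs and 1.60 to 1.67% with CrOE EVs. These ranges do not overlap. On the first principal component of all genes the CrOE libraries lay at 109 to 113 and all other libraries at -41.8 to -29.7. One library, shCr replicate 1, stood apart from the others of its group on the third principal component, at 42.0 against 1.47 and -5.05. Its mitochondrial share of counts was 0.622% against 1.44 and 1.70%. Low shares were also found in other groups, at 0.495% in untreated replicate 1 and 0.693% in CrOE replicate 2, and the untreated libraries themselves ranged from 0.495 to 1.64%. In the genes below shCr replicate 1 was often the highest of its group (Lamp2, Cd63, Ctsl, Atg12, Gabarapl1) or the lowest (Mcoln1, Ulk1). The 12 fibroblast markers were all detected in untreated cells and with shCon and shCr EVs. With CrOE EVs all but Lum were, a collagen-binding proteoglycan there at 0.0097 CPM on average. The summed level of the 12 differed without overlap between the groups: 20460 to 22080 CPM in untreated cells, 25730 to 26120 with shCon EVs, 16680 to 18510 with shCr EVs and 8545 to 8924 with CrOE EVs. After CrOE EVs 11 of the 12 were called lower by the test described below, each at 2-fold or more. Of all genes 37.0% were called lower there. Of 10 macrophage markers Adgre1 and Tyrobp were at no more than 1 count in every library. Others were present in all libraries: Csf1r at 23 to 84 counts, Aif1 at 20 to 79, Cd14 at 829 to 2261 and Lyz2 at 40 to 5282. Of the 5 tested, 2 were called higher and 1 lower after shCon EVs, and likewise after shCr EVs. After CrOE EVs 3 were called lower and none higher. Of all genes 18.0 and 18.4% were called higher after shCon and shCr EVs, and 20.2 and 18.8% lower. The list summed to 123 to 137 CPM without EVs, 119 to 131 with shCon EVs, 170 to 243 with shCr EVs and 30.3 to 36.5 with CrOE EVs, nearly all of it Cd14 and the lysozyme gene Lyz2. Of 10 epithelial markers Epcam was at 0 in every library. The list summed to 1.39 to 2.10 CPM without EVs, 1.15 to 1.39 with shCon EVs, 1.30 to 1.67 with shCr EVs and 2.53 to 3.62 with CrOE EVs. Only 3 of them were tested, and after CrOE EVs 2 were called higher and 1 was not called, beside 36.7% of all genes called higher. Cldn4 stood at 0 CPM on average without EVs and at 1.15 CPM with CrOE EVs. The part of these shifts in the results below was not tested.

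Against untreated cells the lysosome and autophagy genes were mostly higher with either shCon or shCr EVs, and mostly lower with CrOE EVs. A gene was called where edgeR's quasi-likelihood test gave a Benjamini-Hochberg adjusted p under 0.05 over all genes tested. After shCon EVs 23 of the 43 genes were called higher, 2 lower and 18 were not called, beside 38.1% called among all genes (18.0% higher, 20.2% lower). The corresponding counts after shCr EVs were 29, 3 and 11, beside 37.3% of all genes (18.4% higher, 18.8% lower). With CrOE EVs they were 11, 25 and 7, beside 73.7% of all genes (36.7% higher, 37.0% lower). Median log2 fold changes of the 43 genes were 0.20, 0.31 and -0.24 in that order, while those of all genes were 0.0069, 0.020 and 0.0078.

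**Figure D1:**
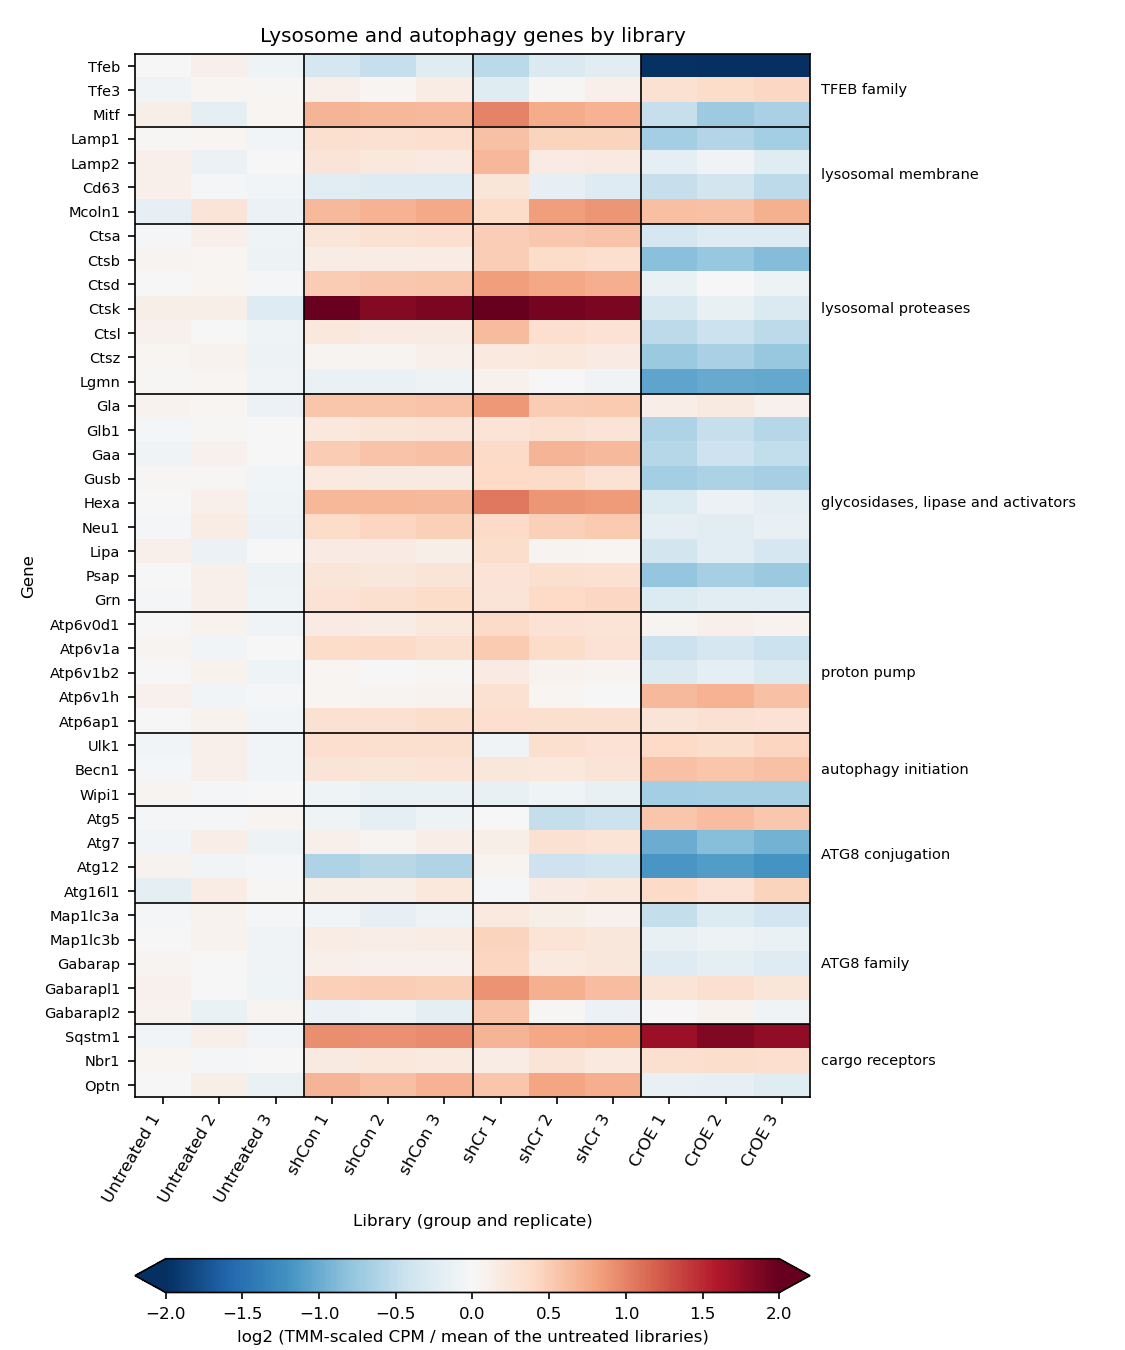
Level of each of the 43 tested genes (rows, grouped by role) in each library (columns) as log2 of its TMM-scaled CPM over the mean of the untreated libraries; red is higher and blue lower. Most hydrolase rows are red in the shCon and shCr columns and blue in the CrOE columns, while Sqstm1 is red in all 9 libraries of EV-exposed cells.

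The size of most of these differences was modest. The median absolute log2 fold change was 0.24 after shCon EVs and 0.32 after shCr EVs, against 0.23 and 0.22 for all genes, and Ctsk alone was called at 2-fold or more in both. After CrOE EVs it was 0.39, below the 0.60 of all genes, and Tfeb, Lgmn, Atg12 and Sqstm1 were called at 2-fold or more. Libraries of the 2 groups did not overlap for 36, 31 and 38 of the 43 genes, beside 54.2, 41.9 and 77.7% of all genes. Among the 4 groups 42 of 43 genes differed by the F-test, beside 81.3% of all genes; Gabarapl2 did not.

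**Figure D2:**
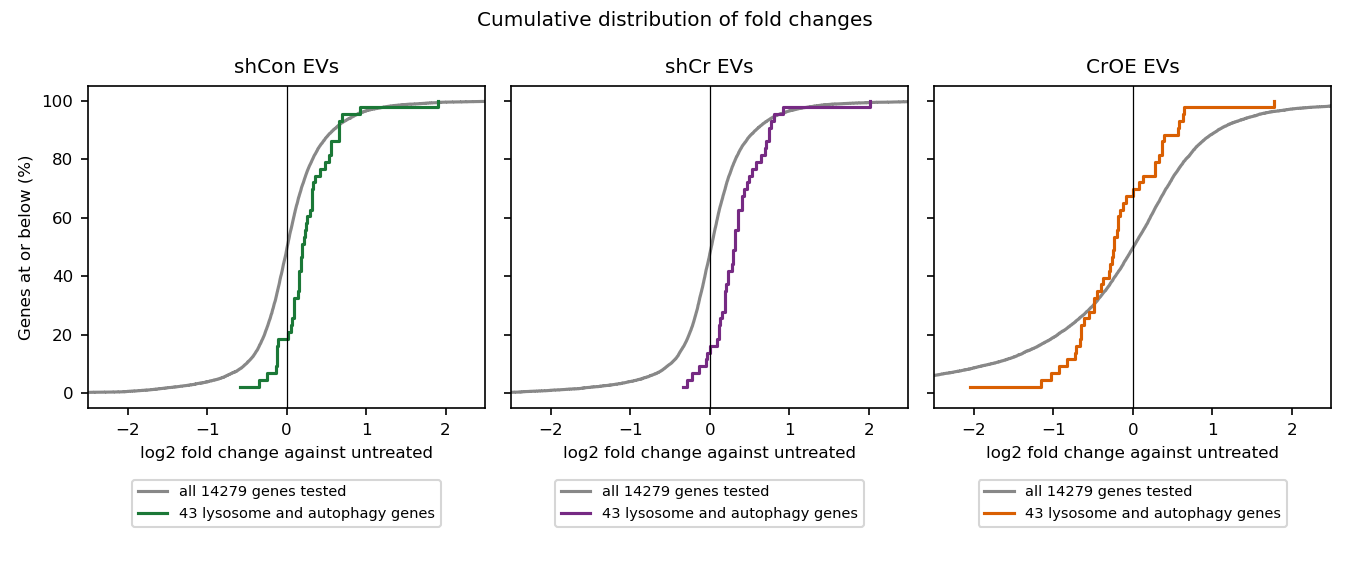
Cumulative share of genes (%) at or below each log2 fold change against untreated cells, for the 43 lysosome and autophagy genes (coloured) and all 14279 genes tested (grey). The coloured curve lies to the right of the grey one after shCon and shCr EVs over most of its length, and after CrOE EVs it crosses zero with most genes below it.

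The 3 comparisons share the untreated libraries, so their calls are set side by side and not counted as separate support. The most frequent combination was a rise with shCon EVs, a rise with shCr EVs and a fall with CrOE EVs, shown by 12 of the 43 genes (27.9%) against 4.66% of all genes: Mitf, Lamp1, Ctsa, Glb1, Gaa, Gusb, Hexa, Neu1, Psap, Grn, Atp6v1a and Optn. A further 6 (14.0%, against 6.29%) were higher after all EVs: Mcoln1, Atp6ap1, Becn1, Gabarapl1, Sqstm1 and Nbr1. Another 4 (9.3%, against 2.05%) were higher with shCon and shCr EVs and not called with CrOE EVs: Ctsd, Ctsk, Gla and Atp6v0d1. Tfeb alone was lower after all EVs, a combination seen in 9.08% of all genes, and none was lower with shCon and shCr EVs but higher with CrOE EVs (3.29% of all genes). A call with CrOE EVs alone was rarer than among all genes for rises (3 genes, 6.98%, against 20.0%) and about as frequent for falls (5 genes, 11.6%, against 14.5%), and Gabarapl2 alone had no call at all, beside 18.0% of all genes. Leaving out each library in turn and the other settings tried kept 22 of the 25 calls after shCon EVs, 26 of 32 after shCr EVs and 33 of 36 after CrOE EVs; the calls that did not hold are given below with the genes. Fitting only the 2 groups compared ended the shCr calls of Tfeb, Lamp2, Ctsz, Wipi1, Atg5 and Atg7 (adjusted p from 0.0766 to 0.147), and made calls of Lamp2, Cd63, Ctsb, Ctsl, Lgmn and Map1lc3b after shCon EVs (0.00287 to 0.0422) and of Lamp2 and Map1lc3b after CrOE EVs (0.0415 and 0.0365), in the reported directions. A fit with no low-count filter ended the calls of Wipi1 with shCr EVs (0.106) and Optn with CrOE EVs (0.0643). Without shCr replicate 1 the higher and lower calls numbered 28 and 5 for shCon EVs, 30 and 5 for shCr EVs and 12 and 28 for CrOE EVs. Without untreated replicate 2 they numbered 24 and 2, 28 and 1, and 11 and 22.

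**Figure D3:**
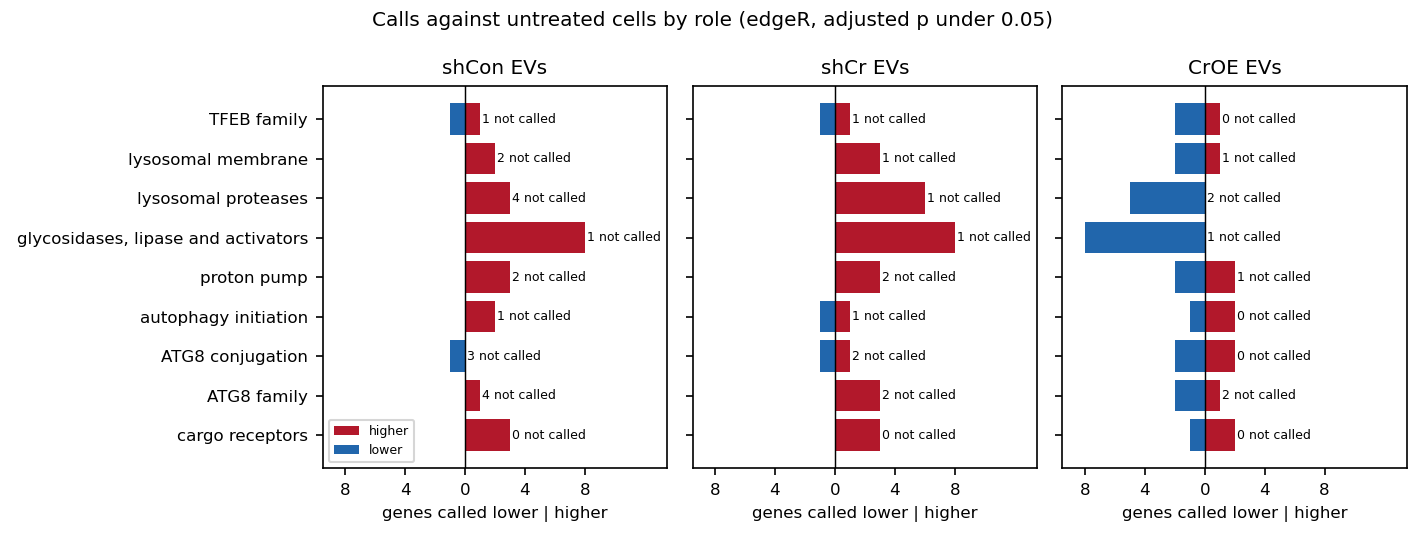
Number of genes called higher (red, to the right) or lower (blue, to the left) than in untreated cells, by role, for each kind of EV; the number not called is printed beside each bar. The 9 glycosidases and activators show 8 higher with shCon EVs, 8 higher with shCr EVs and 8 lower with CrOE EVs. The shares of all genes called in those directions were 18.0, 18.4 and 37.0%.

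The TFEB family moved apart, one member at a time. Levels here and below are TMM-scaled CPM, which rescale the counts of every library to one common total, for replicates 1, 2 and 3 in that order. Tfeb stood at 8.90, 9.61 and 8.43 CPM without EVs, 7.01, 6.51 and 7.60 CPM with shCon EVs, 6.17, 7.37 and 7.74 CPM with shCr EVs and 2.28, 2.15 and 2.08 CPM with CrOE EVs. Every EV library was below every untreated library, and the CrOE libraries were lowest by a wide margin. The log2 fold change was -0.35 (SE 0.10, adjusted p = 0.018) after shCon EVs, -0.34 (SE 0.10, adjusted p = 0.0215) after shCr EVs and -2.05 (SE 0.12, adjusted p = 3.35e-09) after CrOE EVs. The smaller falls were lost when single libraries were left out: for shCon EVs without untreated replicate 2 (adjusted p = 0.0615), shCon replicate 1 (0.0539) or shCon replicate 2 (0.0807), and for shCr EVs without untreated replicate 2 (0.0703).

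Tfe3, a close relative of Tfeb, stood at 120, 131 and 129 CPM without EVs, 135, 130 and 140 CPM with shCon EVs, 107, 128 and 136 CPM with shCr EVs and 157, 163 and 168 CPM with CrOE EVs. Only the CrOE libraries lay wholly above the untreated ones, with a log2 fold change of 0.36 (SE 0.077, adjusted p = 0.000887). After shCon and shCr EVs the values were 0.094 and -0.033, with no call (adjusted p = 0.369 and 0.771). Mitf, best known from melanocytes and osteoclasts, stood at 11.8, 9.64 and 11.3 CPM without EVs, 17.5, 17.3 and 17.1 CPM with shCon EVs, 21.7, 18.3 and 17.8 CPM with shCr EVs and 7.93, 6.58 and 6.96 CPM with CrOE EVs. Its libraries fell into separate ranges, CrOE lowest, then untreated, with shCon and shCr highest. Log2 fold changes were 0.66 (SE 0.10, adjusted p = 0.000245), 0.82 (SE 0.10, adjusted p = 3.92e-05) and -0.61 (SE 0.11, adjusted p = 0.000177) in the order shCon, shCr, CrOE, which also holds for each set of 3 fold changes below. Per kb of exon the untreated levels were 13.7 CPM for Tfe3, 1.76 for Mitf and 1.58 for Tfeb, so that Tfe3 made up most of the family's transcripts.

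**Figure D4:**
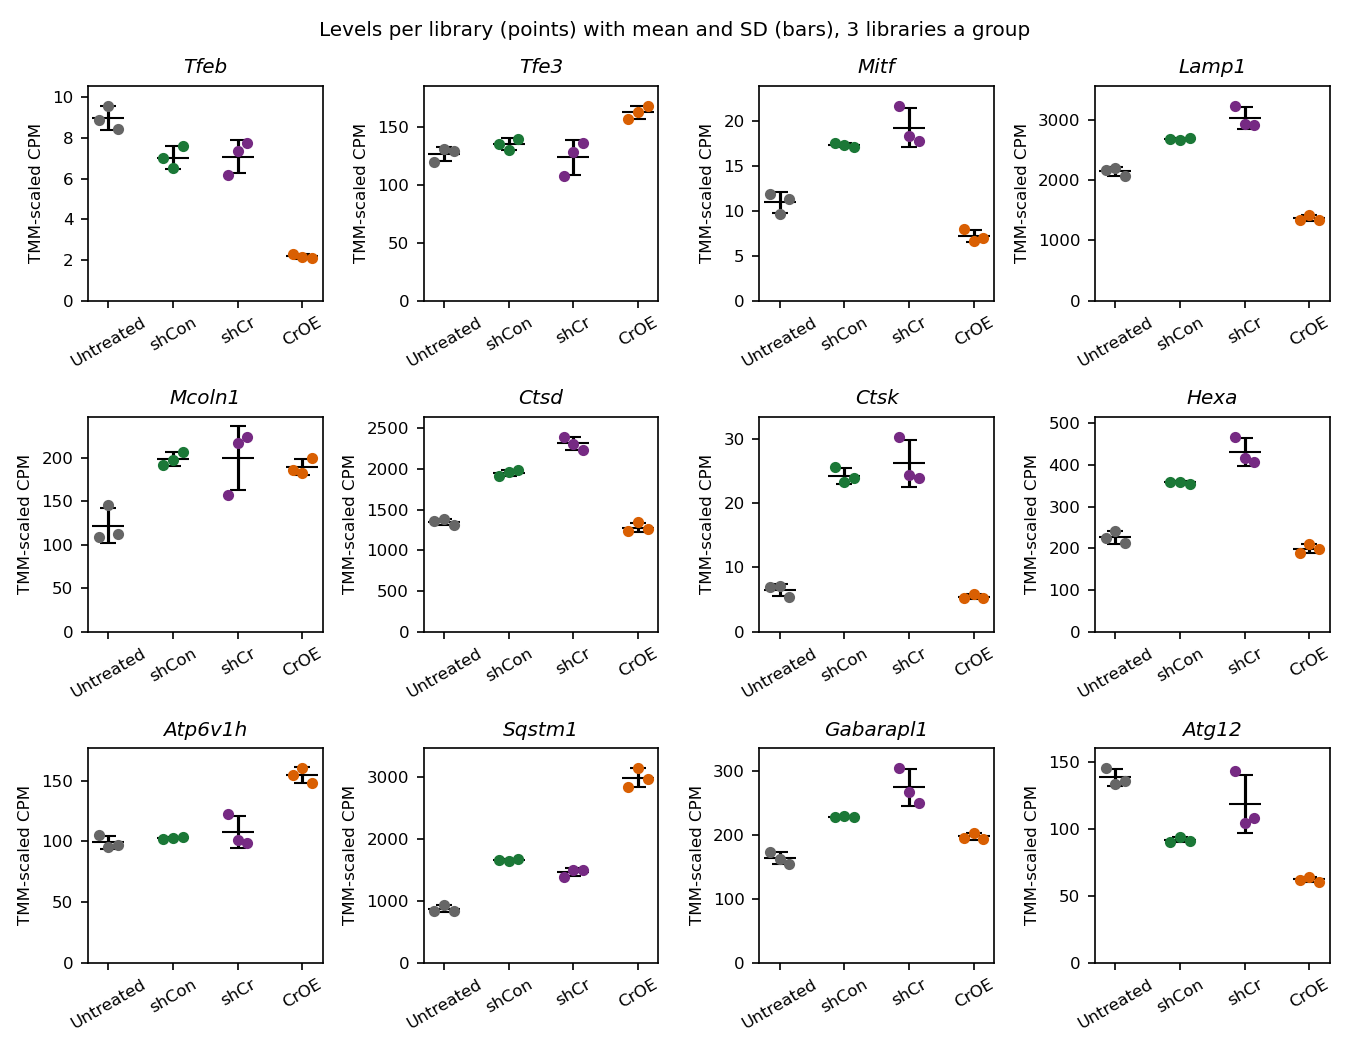
TMM-scaled CPM (linear axes starting at 0) of 12 genes in each library (points, 3 a group) with the group mean and SD (bars). Tfeb is lowest after CrOE EVs, Ctsk is high only after shCon and shCr EVs, and Sqstm1 is highest after CrOE EVs.

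Lysosomal membrane genes rose after shCon EVs in 2 of 4 cases and after shCr EVs in 3, and split after CrOE EVs (1 higher, 2 lower, 1 not called). Of all genes 18.0 and 18.4% were called higher after shCon and shCr EVs, and after CrOE EVs 36.7% higher and 37.0% lower. Lamp1, which encodes one of the most abundant glycoproteins of the lysosomal membrane, was also the highest of the 44 genes per kb of exon, at 804 CPM per kb in untreated cells. Its level was 2178, 2203 and 2068 CPM without EVs, 2683, 2669 and 2707 CPM with shCon EVs, 3242, 2930 and 2918 CPM with shCr EVs and 1341, 1427 and 1339 CPM with CrOE EVs. The groups did not overlap, in the order CrOE, untreated, shCon, shCr, and the log2 fold change was 0.32 (SE 0.053, adjusted p = 0.000414), 0.50 (SE 0.053, adjusted p = 1.11e-05) and -0.65 (SE 0.053, adjusted p = 1.39e-07). Mcoln1, the lysosomal calcium channel TRPML1 whose promoter is printed above, stood at 109, 145 and 112 CPM without EVs, 191, 197 and 207 CPM with shCon EVs, 157, 217 and 225 CPM with shCr EVs and 186, 183 and 200 CPM with CrOE EVs. All EV libraries lay above all untreated ones, although shCr replicate 1 and untreated replicate 2 came close to each other. Fold changes on the log2 scale were 0.70 (SE 0.13, adjusted p = 0.000986), 0.71 (SE 0.13, adjusted p = 0.000836) and 0.64 (SE 0.13, adjusted p = 0.000633).

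Lamp2, the partner of Lamp1 that also takes part in chaperone-mediated autophagy, stood at 995, 861 and 937 CPM without EVs, 1117, 1076 and 1052 CPM with shCon EVs, 1472, 1042 and 1055 CPM with shCr EVs and 822, 890 and 789 CPM with CrOE EVs. Much of the height after shCr EVs came from replicate 1. Against untreated cells the fitted log2 change was 0.35 (SE 0.11, adjusted p = 0.0261) after shCr EVs, and the call was lost without untreated replicate 2 (adjusted p = 0.086) or replicate 3 (0.0678). For shCon EVs it was 0.22 (adjusted p = 0.152), a call once shCr replicate 1 was left out (0.00585), and for CrOE EVs -0.16 (adjusted p = 0.217), likewise called without that library (0.0161). Cd63, a tetraspanin of late endosomes and of EVs themselves, stood at 809, 737 and 725 CPM without EVs, 654, 634 and 632 CPM with shCon EVs, 894, 675 and 634 CPM with shCr EVs and 551, 585 and 529 CPM with CrOE EVs. With CrOE EVs it was lower, at -0.45 (SE 0.10, adjusted p = 0.00167), and it was not called after shCon (-0.24, adjusted p = 0.0852) or shCr EVs (-0.043, 0.775). The shCon difference was called without shCr replicate 1 (0.0018) or shCr replicate 3 (0.0493), and the shCr difference without shCr replicate 1 (0.00833), in both cases lower than untreated. Of the 31-base stretches of Cd63, 15.9% also occur in the pseudogene Cd63-ps or in Irak2, so its counts are less certain; Cd63-ps itself stood at 0.089 to 0.29 CPM on average in the groups.

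Lysosomal proteases were called higher or not at all after shCon and shCr EVs and lower or not at all after CrOE EVs. Of the 7 tested, 3 rose after shCon EVs and 6 after shCr EVs with no fall, while 5 fell after CrOE EVs with no rise. The shares of all genes were 18.0 and 18.4% called higher after shCon and shCr EVs, and 37.0% called lower after CrOE EVs. The summed level of the protease list was 4852 to 5248 CPM without EVs, 6169 to 6276 with shCon EVs, 7035 to 7761 with shCr EVs and 3687 to 3945 with CrOE EVs. Ctsk, the collagen-degrading cathepsin K of osteoclasts and activated fibroblasts, had the largest rise of all 43 genes after shCon and shCr EVs. It stood at 6.99, 7.01 and 5.41 CPM without EVs, 25.5, 23.2 and 23.9 CPM with shCon EVs, 30.3, 24.3 and 23.8 CPM with shCr EVs and 5.17, 5.82 and 5.28 CPM with CrOE EVs. The shCon and shCr libraries were all at 23.2 CPM or more and the others all at 7.01 CPM or less. The fitted log2 change was 1.90 (SE 0.12, adjusted p = 1.13e-07) after shCon EVs, 2.01 (SE 0.12, adjusted p = 6.13e-08) after shCr EVs and -0.25 (SE 0.13, adjusted p = 0.0884) after CrOE EVs, where leaving out untreated replicate 3 (0.0171) or shCr replicate 1 (0.0362) made it a call.

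Ctsd, the main lysosomal aspartic protease, stood at 1358, 1382 and 1314 CPM without EVs, 1915, 1969 and 1986 CPM with shCon EVs, 2400, 2311 and 2238 CPM with shCr EVs and 1231, 1342 and 1263 CPM with CrOE EVs. Its shCon and shCr libraries lay above all others, with the shCr ones highest, and CrOE libraries overlapped the untreated ones. The log2 fold change was 0.53 (SE 0.049, adjusted p = 3.38e-06), 0.78 (SE 0.049, adjusted p = 1.15e-07) and -0.080 (SE 0.049, adjusted p = 0.159). With a minimum of 10 counts in every library the CrOE value was -0.11 and was called lower (0.0436). In GENCODE M21, 34.4% of the exon bases of Ctsd lie under another gene on its strand, which is not among the rows of the table. Ctsb and Ctsl, the cysteine proteases cathepsin B and L, shared another combination. Ctsb stood at 1307, 1302 and 1185 CPM without EVs, 1397, 1404 and 1409 CPM with shCon EVs, 1784, 1639 and 1589 CPM with shCr EVs and 707, 746 and 692 CPM with CrOE EVs. Ctsl stood at 1291, 1221 and 1153 CPM without EVs, 1415, 1362 and 1371 CPM with shCon EVs, 1890, 1548 and 1488 CPM with shCr EVs and 849, 905 and 848 CPM with CrOE EVs. For both genes the CrOE libraries lay below all untreated ones and the shCr libraries above them. Both rose after shCr EVs, by 0.40 and 0.43 on the log2 scale (adjusted p = 0.000134 and 0.00101), and fell with CrOE EVs, the log2 fold changes being -0.82 and -0.49 (adjusted p = 3.22e-08 and 9.73e-05). After shCon EVs they were 0.15 and 0.18, missing the threshold (adjusted p = 0.0572 and 0.0972), but called higher without shCr replicate 1 (0.0155 for Ctsb, 0.0062 for Ctsl) and in the fit of the groups compared alone (0.0191 and 0.0102). With all libraries kept Ctsb was also called by DESeq2 (0.04), with a minimum of 10 counts (0.0467) and with the replicate block (0.0386). On the opposite strand Fdft1, a sterol synthesis gene, overlaps 12.8% of the exon bases of Ctsb and stood at 412 CPM in untreated cells, 487 and 493 after shCon and shCr EVs and 193 after CrOE EVs. Opposite-strand genes also overlap 17.4% of the exon bases of Ctsa, 26.8% of Ctsl and 12.8% of Hexa. Whether reads were counted by strand is not given in the sources used here, and the part of such overlaps was not tested.

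Lgmn, the asparaginyl endopeptidase legumain that activates other lysosomal proteases, stood at 244, 248 and 230 CPM without EVs, 220, 220 and 224 CPM with shCon EVs, 255, 240 and 229 CPM with shCr EVs and 115, 120 and 118 CPM with CrOE EVs. The CrOE libraries were at about the same level as each other and below all others, giving -1.03 (SE 0.051, adjusted p = 9.99e-10). It was not called after shCon (-0.12, adjusted p = 0.0763) or shCr EVs (0.0021, 0.982); without shCr replicate 1 the shCon value was called lower (0.0265). Ctsa, the protease that also protects Glb1 and Neu1 in a complex, rose by 0.29 and 0.54 after shCon and shCr EVs (adjusted p = 0.000971 and 7.26e-06) and changed by -0.29 after CrOE EVs (adjusted p = 0.000335). Ctsz, a carboxypeptidase, rose after shCr EVs (0.19, adjusted p = 0.0151), a call lost without untreated replicate 3 (0.0906), and fell after CrOE EVs (-0.72, adjusted p = 7.25e-08).

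The glycosidases, the lipase and the activator proteins moved largely together. Of the 9, 8 rose after shCon EVs and 8 after shCr EVs, with Lipa, the lysosomal acid lipase, not called in either (0.15 and 0.16, adjusted p = 0.175 and 0.168; the first was called without shCr replicate 1, at 0.0398). After CrOE EVs 8 of 9 fell, with Gla not called (0.13, adjusted p = 0.178, called higher without shCr replicate 1 at 0.0265). The summed level was 3934 to 4368 CPM without EVs, 5194 to 5314 with shCon EVs, 5378 to 5553 with shCr EVs and 2884 to 3118 with CrOE EVs. Hexa, the alpha subunit of the hexosaminidase that degrades GM2 ganglioside, stood at 225, 243 and 212 CPM without EVs, 359, 360 and 355 CPM with shCon EVs, 468, 417 and 408 CPM with shCr EVs and 188, 210 and 199 CPM with CrOE EVs. It was highest after shCr EVs, and the CrOE libraries lay just below the untreated ones. Log2 fold changes were 0.66 (SE 0.067, adjusted p = 7.99e-06), 0.93 (SE 0.067, adjusted p = 3.67e-07) and -0.19 (SE 0.067, adjusted p = 0.0227), the last of which missed the threshold without untreated replicate 2 (0.0942), CrOE replicate 1 (0.104) or CrOE replicate 3 (0.056).

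The other rises in this group ran from 0.19 (Gusb, beta-glucuronidase) to 0.56 (Gla, alpha-galactosidase A) after shCon EVs, and from 0.28 (Glb1, beta-galactosidase) to 0.64 (Gla) after shCr EVs. Gaa, the acid alpha-glucosidase that degrades lysosomal glycogen, rose by 0.55 and 0.58 (adjusted p = 0.000101 and 6.55e-05) and had a log2 fold change of -0.49 after CrOE EVs (adjusted p = 7.21e-05). Psap, the precursor of the saposins that activate sphingolipid hydrolases, had the largest fall of the group after CrOE EVs, at -0.72 (SE 0.055, adjusted p = 6.95e-08). Its libraries there held 1047, 1139 and 1078 CPM against 1785, 1924 and 1679 CPM in untreated cells. Grn, the progranulin gene, changed by 0.33, 0.35 and -0.23 in the order shCon, shCr, CrOE (adjusted p = 0.000937, 0.000489 and 0.00346). Neu1, the lysosomal sialidase, rose by 0.43 and 0.46 (adjusted p = 0.000299 and 0.000143). Its small difference after CrOE EVs (-0.19, adjusted p = 0.0199) was no call without untreated replicate 2 (0.0994), CrOE replicate 1 (0.0569) or CrOE replicate 2 (0.0676).

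**Figure D5:**
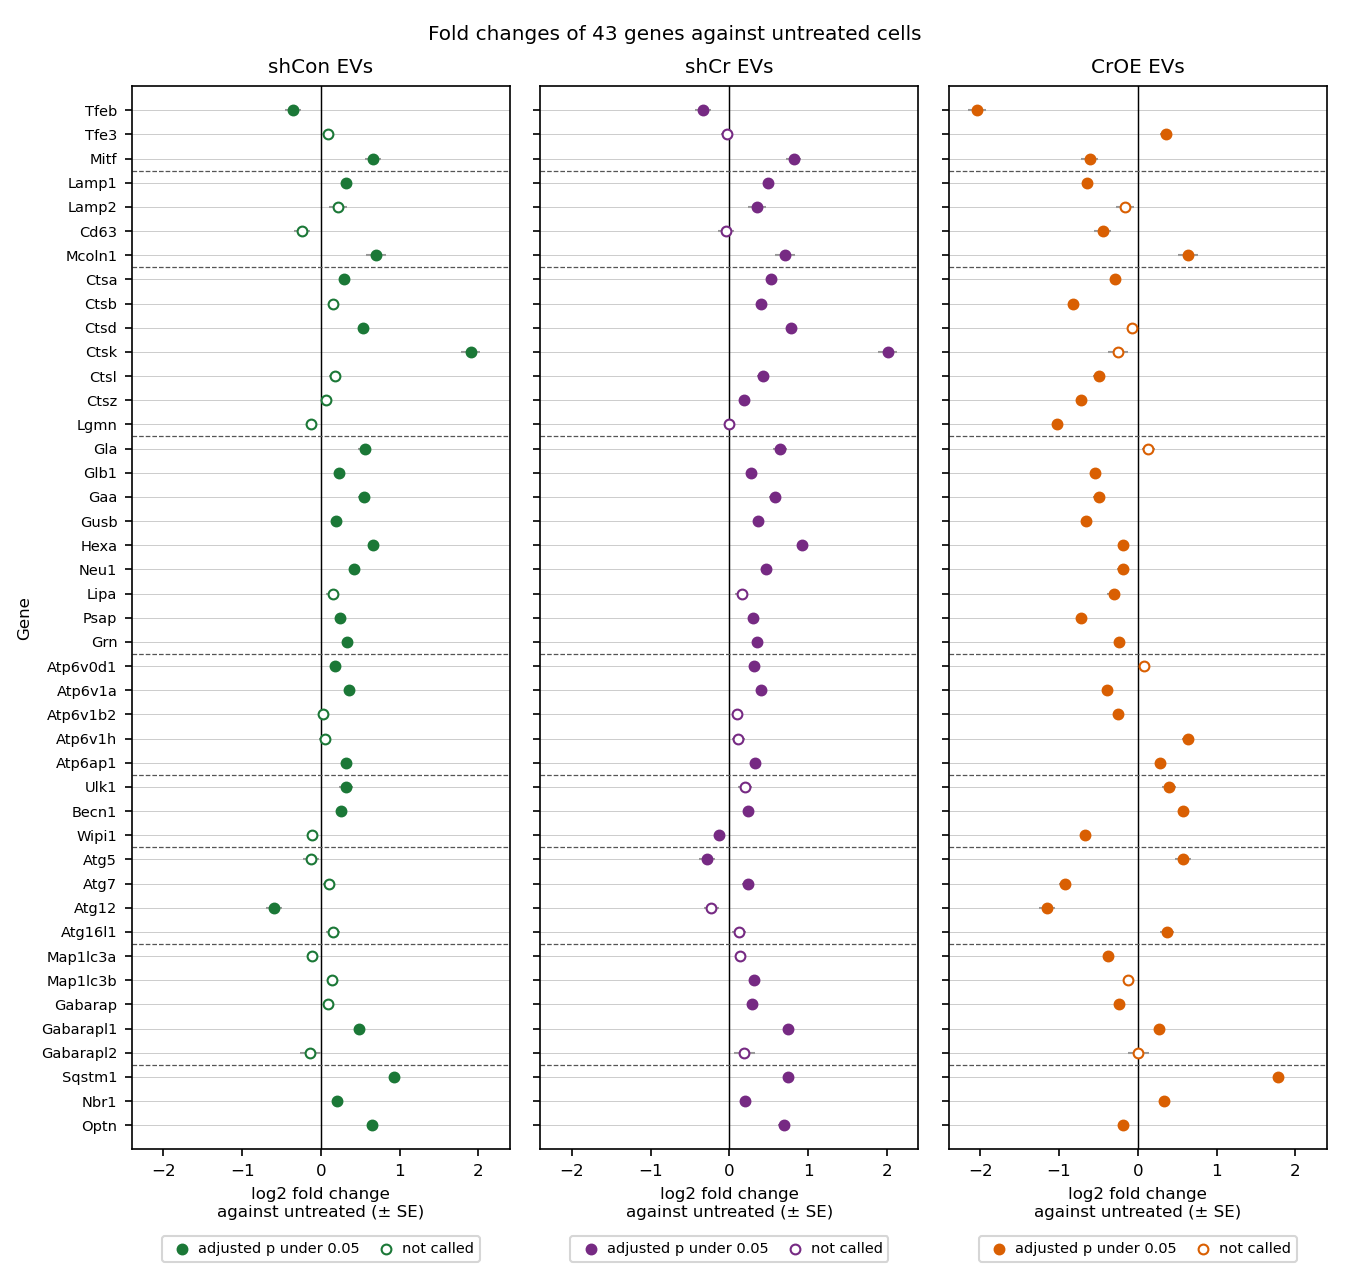
Log2 fold change against untreated cells with its SE for each of the 43 genes (rows, in the order of the text) and each kind of EV (panels); filled points passed an adjusted p of 0.05 and open points did not. Ctsk stands far to the right after shCon and shCr EVs, Tfeb far to the left and Sqstm1 far to the right after CrOE EVs.

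Subunits of the proton pump did not move as one. After shCon and shCr EVs 3 of 5 rose (Atp6v0d1, Atp6v1a and the accessory subunit Atp6ap1), by 0.17, 0.36 and 0.32 and by 0.32, 0.40 and 0.32 respectively. The rise of Atp6v0d1, which joins the membrane sector to the stalk, after shCon EVs (adjusted p = 0.0174) was lost without untreated replicate 1 (0.0739), untreated replicate 3 (0.0834) or shCon replicate 3 (0.0724). The shares of all genes called higher after shCon and shCr EVs were 18.0 and 18.4%. With CrOE EVs 2 of the 5 subunits rose and 2 fell, beside 36.7% of all genes called higher and 37.0% lower. Atp6v1h, the regulatory subunit H that couples ATP hydrolysis to proton transport, stood at 106, 95.1 and 96.9 CPM without EVs, 102, 103 and 104 CPM with shCon EVs, 123, 101 and 98.5 CPM with shCr EVs and 155, 161 and 148 CPM with CrOE EVs. Only the CrOE libraries lay wholly above the untreated ones, at 0.64 (SE 0.077, adjusted p = 5.95e-06). Atp6ap1 was higher after CrOE EVs too (0.28, adjusted p = 9.2e-05). The catalytic subunit Atp6v1a and the B subunit Atp6v1b2 were lower, at -0.39 and -0.26 (adjusted p = 7.49e-05 and 0.000841). Subunits of one enzyme thus went in opposite directions in the same libraries.

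Autophagy initiation genes were called in every comparison with untreated cells except Wipi1 after shCon EVs and Ulk1 after shCr EVs. Among all genes 38.1, 37.3 and 73.7% were called after shCon, shCr and CrOE EVs. Ulk1, the kinase that starts autophagy, stood at 95.3, 106 and 94.7 CPM without EVs, 124, 123 and 123 CPM with shCon EVs, 94.1, 123 and 121 CPM with shCr EVs and 130, 126 and 133 CPM with CrOE EVs. In shCr replicate 1 it was at the untreated level, and in the other 8 EV libraries it was above all untreated ones. Fold changes on the log2 scale were 0.32 (SE 0.087, adjusted p = 0.011) after shCon EVs, 0.20 (SE 0.087, adjusted p = 0.0984) after shCr EVs and 0.39 (SE 0.087, adjusted p = 0.00114) after CrOE EVs. Without shCr replicate 1 the shCr difference was called (0.000445), and without untreated replicate 3 the shCon call was lost (0.0509). Becn1, a subunit of the lipid kinase complex that follows Ulk1, rose by 0.26, 0.23 and 0.58 (adjusted p = 0.00134, 0.00249 and 2.25e-07); 43.9% of its exon bases overlap Cntd1 on the opposite strand, which itself stood below 0.25 CPM on average in every group.

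Wipi1 encodes a protein that reads the lipid made by the Becn1 complex. Its libraries held 137, 128 and 131 CPM without EVs, 124, 120 and 121 CPM with shCon EVs, 118, 124 and 119 CPM with shCr EVs and 82.3, 83.6 and 83.4 CPM with CrOE EVs. The CrOE libraries lay far below the rest, with a log2 fold change of -0.66 (SE 0.045, adjusted p = 2.2e-08). After shCr EVs the small difference of -0.13 (adjusted p = 0.0366) was no call without untreated replicate 1 (0.11), untreated replicate 3 (0.056), shCon replicate 2 (0.0577), shCr replicate 3 (0.0977) or CrOE replicate 3 (0.0547). For shCon EVs the difference of -0.12 (adjusted p = 0.0596) became a call without untreated replicate 2 (0.0411) or shCr replicate 1 (0.0286).

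The ATG8 conjugation genes split within a single enzyme cascade. Atg12 and Atg5 encode proteins that are joined to each other by Atg7 and then bind Atg16l1. Atg12 stood at 146, 134 and 136 CPM without EVs, 90.3, 94.0 and 91.2 CPM with shCon EVs, 144, 104 and 108 CPM with shCr EVs and 61.9, 63.8 and 60.5 CPM with CrOE EVs. The shCon and CrOE libraries lay below all untreated ones, CrOE lowest, whereas shCr replicate 1 was within the untreated range and shCr replicates 2 and 3 were not. Against untreated cells the fitted log2 change was -0.59 (SE 0.10, adjusted p = 0.00043) after shCon EVs, -0.23 (SE 0.10, adjusted p = 0.0878) after shCr EVs and -1.16 (SE 0.10, adjusted p = 2.26e-07) after CrOE EVs. Without shCr replicate 1 the shCr value was -0.39 and was called (3.22e-05).

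Atg5 went the other way after CrOE EVs. Its libraries held 18.6, 18.6 and 19.9 CPM without EVs, 18.0, 16.8 and 17.7 CPM with shCon EVs, 19.1, 13.7 and 14.2 CPM with shCr EVs and 27.9, 29.2 and 27.7 CPM with CrOE EVs. The CrOE libraries were all above the untreated ones, at 0.57 (SE 0.10, adjusted p = 0.000221). The call after shCr EVs (-0.29, SE 0.10, adjusted p = 0.0481) rested on a difference in which shCr replicate 1 overlapped the untreated range, and it was lost whichever of the 12 libraries was left out except shCr replicate 1, with adjusted p from 0.0606 (shCon replicate 1) to 0.18 (shCr replicate 2). Atg7, the E1-like enzyme, fell after CrOE EVs, from 110, 125 and 106 CPM in untreated cells to 57.2, 62.8 and 58.6 CPM (-0.93, SE 0.072, adjusted p = 8.57e-08). After shCr EVs it rose by 0.23 (adjusted p = 0.02), a call lost without untreated replicate 1 (0.0938), untreated replicate 3 (0.11), shCr replicate 2 (0.0783) or shCr replicate 3 (0.0645). Atg16l1 rose after CrOE EVs (0.37, adjusted p = 0.00159) and was not called after the other EVs.

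Among the ATG8 proteins themselves, Gabarapl1 was the only one called higher after every kind of EV. It stood at 173, 162 and 155 CPM without EVs, 228, 230 and 228 CPM with shCon EVs, 305, 268 and 249 CPM with shCr EVs and 195, 203 and 194 CPM with CrOE EVs. All EV libraries lay above all untreated ones and the shCr libraries were highest. The fitted log2 change was 0.48 (SE 0.069, adjusted p = 0.000137), 0.75 (SE 0.069, adjusted p = 3.24e-06) and 0.27 (SE 0.069, adjusted p = 0.00297); 28.3% of its exon bases overlap a gene on the opposite strand. Map1lc3b, which encodes the LC3B protein most used as a marker of autophagosomes, stood at 441, 460 and 421 CPM without EVs, 488, 481 and 489 CPM with shCon EVs, 599, 530 and 513 CPM with shCr EVs and 397, 413 and 402 CPM with CrOE EVs. It was called higher after shCr EVs only, at 0.31 (SE 0.060, adjusted p = 0.00117). After shCon EVs it was 0.14 (adjusted p = 0.0796), a call without untreated replicate 2 (0.0477) or shCr replicate 1 (0.0128), and after CrOE EVs -0.13 (adjusted p = 0.0745), a call without untreated replicate 3 (0.0431) or shCr replicate 1 (0.0121). With a minimum of 10 counts in every library the CrOE value was -0.16 and was called lower (0.023). Map1lc3a and Gabarap were lower after CrOE EVs (-0.38 and -0.24, adjusted p = 0.000124 and 0.00337), and Gabarap was higher after shCr EVs (0.29, adjusted p = 0.00268). Gabarapl2, of whose 31-base stretches 15.2% occur in other genes, was called in no comparison of the fit of all libraries; without shCr replicate 3 it was called for shCr against shCon EVs (0.0429) and for CrOE against shCr EVs (0.0358).

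Cargo receptors were called in all 9 tests against untreated cells, which share the untreated libraries. Among all genes 38.1, 37.3 and 73.7% were called after shCon, shCr and CrOE EVs. Sqstm1, which encodes p62, stood at 841, 934 and 837 CPM without EVs, 1654, 1643 and 1679 CPM with shCon EVs, 1390, 1496 and 1497 CPM with shCr EVs and 2841, 3152 and 2964 CPM with CrOE EVs. The groups did not overlap, in the order untreated, shCr, shCon, CrOE. The log2 fold change was 0.93 (SE 0.059, adjusted p = 1.25e-07), 0.75 (SE 0.058, adjusted p = 7.31e-07) and 1.78 (SE 0.060, adjusted p = 2.33e-11), the last a 3.43-fold difference and the smallest adjusted p of the 43 genes. Of its exon bases 17.3% overlap Mrnip on the opposite strand. Nbr1, a receptor related to p62, rose by 0.20, 0.20 and 0.33 (adjusted p = 0.00336, 0.00286 and 1.58e-05). Optn, the receptor optineurin, rose from 30.7, 33.2 and 28.1 CPM to 48.8, 46.5 and 49.5 CPM after shCon EVs and 45.2, 52.9 and 50.7 CPM after shCr EVs (log2 fold changes 0.66 and 0.70, adjusted p = 1.84e-05 and 9.56e-06). After CrOE EVs it was at 27.8, 27.2 and 26.0 CPM, all below the untreated libraries (-0.18, adjusted p = 0.0406), a call lost without untreated replicate 1 (0.0818), untreated replicate 2 (0.169), shCon replicate 1 (0.053), shCon replicate 3 (0.0511) or any CrOE replicate (0.0584, 0.0733 and 0.128).

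The knockdown of CRIPTO in the donor cells was addressed by the comparison of shCr with shCon EVs. Of the 43 genes 8 were called higher after shCr EVs and none lower, beside 8.73% called among all genes (5.22% higher, 3.51% lower), and the median log2 fold change was 0.088 against 0.0043 for all genes. The 8 were Ctsa (0.24, adjusted p = 0.0161), Ctsb (0.25, 0.0172), Ctsd (0.24, 0.0083), Gusb (0.17, 0.0395), Hexa (0.27, 0.0261), Atg12 (0.37, 0.0366), Map1lc3a (0.24, 0.034) and Gabarapl1 (0.26, 0.034). Libraries of the 2 groups did not overlap for 20 of 43 genes, beside 28.0% of all genes. None of the 8 calls held in all leave-one-out fits. Without shCon replicate 1 there were 0 calls, without shCon replicate 2 there was 1 and without shCon replicate 3 there were 2. Each of untreated replicate 1, untreated replicate 3, shCr replicate 1 and CrOE replicate 1 left 5 when omitted, and CrOE replicate 3 left 4. In the fit without shCr replicate 1 the 5 were 4 higher and 1 lower, the lower one being Atg5 (adjusted p = 0.00555). Other alternatives added calls. DESeq2 gave 11 higher and 1 lower, adding Lamp1 (adjusted p = 0.0251), Ctsl (0.0466) and Gabarap (0.0333) as higher and Sqstm1 as lower (0.0209). Sqstm1 was also called lower with the replicate block (0.0442) and without untreated replicate 2 (0.0411).

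CRIPTO overexpression in the donor cells was addressed by CrOE against shCon EVs. None of the 4 groups is labelled as a control of the overexpression itself. In this comparison and the next, the level of CRIPTO and other differences between the donor lines cannot be told apart. Here 7 genes were called higher and 30 lower, beside 72.6% called among all genes (36.5% higher, 36.1% lower), with a median log2 fold change of -0.55 against 0.0075 for all genes. All 7 proteases and all 9 glycosidases, lipase and activators were lower, with medians of -0.79 and -0.78, and libraries of the 2 groups did not overlap for 41 of 43 genes, beside 80.5% of all genes. The differences of 2-fold or more were all falls: Ctsk (-2.16, SE 0.12, adjusted p = 2.95e-09), Tfeb (-1.70, SE 0.12, adjusted p = 2.74e-08), Mitf (-1.27, SE 0.10, adjusted p = 1.5e-07), Gaa (-1.04, SE 0.077, adjusted p = 5.77e-08) and Atg7 (-1.03, SE 0.072, adjusted p = 3.47e-08). The genes called higher were Tfe3 (0.27), Atp6v1h (0.59), Becn1 (0.32), Atg5 (0.69), Atg16l1 (0.22), Sqstm1 (0.85) and Nbr1 (0.13). Those of Atg16l1 and Nbr1 were the smallest. The Atg16l1 call was lost without untreated replicate 3 (adjusted p = 0.0538), shCon replicate 1 (0.108) or 2 (0.0986), or CrOE replicate 1 (0.0762) or 3 (0.115), and the Nbr1 call without shCon replicate 1 (0.0551). With no low-count filter these calls were also lost (0.0524 for Atg16l1, 0.0829 for Nbr1), as they were with a minimum of 10 counts in every library (0.0767 and 0.0543). The fall of Gabarapl1 (-0.21, adjusted p = 0.0146) was lost without CrOE replicate 3 (0.0502), and the other 34 of the 37 calls held under every alternative. Cd63 and Atp6v0d1, not called here, were called lower in the fit of these groups alone (0.000157 and 0.00179), with the minimum of 10 counts (0.0461 and 0.0248) and without shCr replicate 1 (0.00219 and 0.0386).

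CrOE against shCr EVs gave 7 higher and 32 lower, beside 73.9% called among all genes (36.9% higher, 37.0% lower), with a median of -0.53. Libraries of the groups did not overlap for 41 of 43 genes, beside 74.0% of all genes. The same 7 genes were higher, and 11 of the 12 differences of 2-fold or more were falls, Sqstm1 being the exception at 1.03 (SE 0.059, adjusted p = 3.73e-09). The largest falls were those of Ctsk (-2.27, SE 0.12, adjusted p = 1.52e-09), Tfeb (-1.71, SE 0.12, adjusted p = 2.01e-08), Mitf (-1.43, SE 0.10, adjusted p = 4.02e-08), Ctsb (-1.22, SE 0.058, adjusted p = 6.52e-10) and Atg7 (-1.16, SE 0.072, adjusted p = 8.82e-09). Gabarapl1, higher than in untreated cells after every EV, was lower after CrOE than after shCr EVs (-0.47, SE 0.069, adjusted p = 3.66e-05). Mcoln1, Atp6ap1, Ulk1 and Gabarapl2 were not called (-0.074, -0.040, 0.20 and -0.19, adjusted p = 0.616, 0.448, 0.0531 and 0.236). The value of Ulk1 became a call without untreated replicate 1 (0.0465), untreated replicate 2 (0.0481), shCr replicate 2 (0.0206) or shCr replicate 3 (0.0303), and that of Gabarapl2 without shCr replicate 3 (0.0358). Of the rises, that of Atg16l1 was lost without shCr replicate 1 (0.0536) or CrOE replicate 3 (0.0631). That of Nbr1 was lost with no low-count filter (0.0669), with a minimum of 10 counts (0.05) and in the fit of these groups alone (0.0998), and 37 of the 39 calls held under every alternative.

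Read by promoter, the 6 genes with the palindrome were each called higher after shCon and shCr EVs. Of the 30 other tested genes with a window, 16 and 21 were called higher, beside 18.0 and 18.4% of all genes. Median log2 fold changes were 0.44 and 0.59 in the 6 genes, against 0.21 and 0.31 in the other 30. After CrOE EVs the medians were -0.0031 and -0.25, with 1 of the 6 called higher (Mcoln1), 2 lower (Ctsa and Atp6v1a) and 3 not called (Ctsd, Gla and Atp6v0d1). Ctsk, with the largest rise, is among the genes without it. For the 11 genes with TCACGTG the medians were 0.32, 0.50 and -0.39, against 0.20, 0.31 and -0.19 in the 25 without. For the 13 with CACGTG they were 0.29, 0.43 and -0.39, against 0.22, 0.31 and -0.19 in the 23 without. After CrOE EVs the genes with either shorter motif were thus lower at the median, unlike those with the palindrome. All these medians describe few genes and were not tested.

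The wider list of 128 other genes of the same pathways, of which 126 were tested, was also mostly higher among its calls after shCon and shCr EVs, but evenly split after CrOE EVs. After shCon EVs 54 were called higher, 5 lower and 67 not called, so that 46.8% were called, beside 38.1% of all genes. After shCr EVs the counts were 66, 2 and 58 (54.0% called, beside 37.3%), and after CrOE EVs 49, 49 and 28 (77.8%, near the 73.7% of all genes). The medians were 0.15, 0.21 and 0.015 against 0.0069, 0.020 and 0.0078 for all genes. Within it the 31 other hydrolases had 15 higher and 2 lower after shCon EVs, 17 and 1 after shCr EVs, and 2 and 26 after CrOE EVs (median -0.74); called in either direction were 54.8, 58.1 and 90.3%. Hgsnat, which acetylates heparan sulfate for its breakdown, fell after CrOE EVs from 46.5, 49.1 and 49.8 CPM to 11.0, 11.9 and 9.77 CPM (-2.15, SE 0.068, adjusted p = 1.34e-11). Of the other proton pump subunits 8 of 11 were higher and 3 lower after CrOE EVs, with a median of 0.38. The 24 other genes of autophagosome formation had 12 higher and 3 lower there. Of all genes 36.7% were called higher and 37.0% lower after CrOE EVs.

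In the mTORC1 and Rag list Rragd, which encodes a GTPase that brings mTORC1 to the lysosome, was low but higher after every EV. It stood at 0.256, 0.153 and 0.221 CPM without EVs, 0.966, 1.13 and 0.973 CPM with shCon EVs, 0.987, 1.60 and 1.27 CPM with shCr EVs and 1.08, 1.40 and 1.26 CPM with CrOE EVs, from 4 to 7 counts a library in untreated cells. No EV library overlapped the untreated ones, and the log2 fold changes were 2.26 (SE 0.30, adjusted p = 6.74e-05), 2.59 (SE 0.28, adjusted p = 1.42e-05) and 2.55 (SE 0.28, adjusted p = 3.19e-06). Genes of hydrolase sorting to the lysosome, most of them of the mannose-6-phosphate route, split after CrOE EVs. Of these 9, 5 were higher and 2 lower, beside 36.7 and 37.0% of all genes. Both falls were large: Gnptab, the enzyme that makes the sorting tag, stood at 233, 214 and 236 CPM in untreated cells and 75.6, 76.7 and 72.3 CPM after CrOE EVs (-1.60, SE 0.054, adjusted p = 2.42e-11), and Sort1, a sorting receptor, at 35.1, 27.5 and 37.8 and 14.5, 15.4 and 13.1 CPM (-1.22, SE 0.11, adjusted p = 4.1e-07). Sort1 was higher after shCr than after shCon EVs (76.7, 78.3 and 68.4 against 49.5, 48.3 and 43.9 CPM; log2 fold change 0.66, SE 0.10, adjusted p = 0.00175).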

How the data were processed

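Poly(A)-selected RNA from 12 libraries of 3T3 cells (4 groups of 3) was sequenced with directional libraries, per the labels' protocols. The authors deposited gene-level estimated counts, unscaled, in 1 table; 39.8% of values were not whole numbers. The submitters' processing notes name featureCounts and mm39; versions, annotation and use of strand are not given in the sources used here. Columns were matched to libraries by name. The 3 columns headed Cripto were taken as CrOE because the shCr libraries have columns of their own, and every CrOE value rests on that match. In 27 rows the symbol had become a date; none is a listed gene.

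Values were rounded to whole numbers, filtered by filterByExpr (14279 genes left) and scaled by TMM. All 12 libraries entered 1 model with group means, tested by the quasi-likelihood F-test of edgeR 4.0.16 (R 4.3.3) on 8 residual degrees of freedom, with Benjamini-Hochberg adjustment over all genes tested; the common biological coefficient of variation was 8.9%. Counts of at most 3 in each library of a group were taken as the detection floor. Per-library values are given for 15 genes listed for their roles and for the 3 largest rises and falls in each comparison among calls without overlap of libraries, with 2 in place of 3 for the wider list; values shown for other genes were picked after they were seen. Alternatives were DESeq2 1.42.0, its size factors in edgeR, filters that kept every gene or needed 10 counts per library, a block on replicate number, a fit of the compared pair of groups alone, each library left out in turn and, chosen after seeing the data, 2 libraries left out together. Promoter sequences are RefSeq windows on GRCm38.p6 and exon overlaps GENCODE M21 on GRCm38. As the authors' build differs, no coordinates are given other than those of the RefSeq windows. The genes, lists and tests were chosen with earlier results of these data known.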

Additional observations from a re-analysis of the deposited data

How the results depend on the processing

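Under the 20 alternatives, no value called among the 43 genes reversed its direction. Of 258 results (43 genes in 6 comparisons), 177 kept direction and side of the threshold throughout, 57 gained or lost a call, and 24, none of them called, changed sign. Counts of called genes stayed within 1.5 times the reported count except for shCr against shCon EVs (8), where the fit of only the 2 groups gave 2 and leaving out single libraries gave 0 to 10; the cause was not tested. The labels do not say whether replicate numbers mark pairs. Of 18 same-numbered pairs of libraries, 5 had deviations correlated above 0.1 (r from -0.204 to 0.315). The 36 other pairs ranged from -0.364 to 0.35. With 3 libraries a group these correlations cannot decide whether libraries were paired. With the replicate block the calls were 27, 32 and 36 against untreated cells in the order shCon, shCr, CrOE, and 9 for shCr against shCon EVs. In that fit Mcoln1 read -0.0041 for shCr against shCon EVs.

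Sign changes lay near zero, and their cause was not tested. For shCr EVs against untreated cells Lgmn (reported as 0.0021) gave -0.0039 with median-of-ratios size factors, -0.0058 with DESeq2, -0.0053 with no filter, -0.0033 with at least 10 counts and -0.0029 with only the 2 groups. For CrOE EVs against untreated cells Gabarapl2 gave, in that order and skipping no filter, -0.0031, -0.0022, -0.026 and -0.0006. Leaving out untreated replicate 2 and shCr replicate 1 together, chosen after seeing the data, gave for shCr EVs against untreated cells 0.0844 (Tfe3), -0.0188 (Lgmn), -0.0064 (Lipa), -0.0175 (Atp6v1h) and -0.1044 (Gabarapl2). It gave -0.0484 (Lamp2), -0.0116 (Ctsk) and -0.0474 (Atp6v1h) for shCr against shCon EVs, and -0.0555 (Gabarapl2) for CrOE EVs against untreated cells. Over single omissions the ranges against untreated cells were -0.1068 to 0.0569 (Tfe3, shCr), -0.2132 to 0.052 (Cd63, shCr), -0.0442 to 0.0391 (Lgmn, shCr), -0.0449 to 0.3264 (Gabarapl2, shCr), -0.0197 to 0.0635 (Atp6v1b2, shCon) and -0.0556 to 0.048 (Gabarapl2, CrOE). For shCr against shCon EVs they were -0.0542 to 0.0995 (Tfeb), -0.0491 to 0.2241 (Lamp2), -0.085 to 0.1493 (Mcoln1), -0.0122 to 0.1737 (Ctsk) and -0.0479 to 0.1217 (Atp6v1h), and for CrOE against shCr EVs -0.2191 to 0.0189 (Mcoln1). With 3 libraries a group small differences in genes of low counts such as Ctss, Rragd and Acp5 were hard to detect.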

Other observations

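Bnip3, a receptor for the removal of mitochondria, stood at 52.1, 54.2 and 47.7 CPM in untreated cells and 133, 143 and 131 CPM after CrOE EVs (log2 fold change 1.40, SE 0.12, adjusted p = 1.52e-07). After shCon and shCr EVs the values were -0.055 and 0.033, with no call. Of the 31-base stretches of Bnip3, 20.3% also occur in other genes, and 22.3% of its exon bases overlap a gene on the opposite strand. Its counts are thus less certain. Fam134b, an autophagy receptor of the endoplasmic reticulum, rose after every EV, from 13.2, 12.9 and 11.2 CPM to 22.5, 20.4 and 20.8 CPM after shCon EVs (0.77, SE 0.082, adjusted p = 1.19e-05), with log2 fold changes of 0.81 after shCr EVs and 0.55 after CrOE EVs.

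Few genes of the wider pathway list fell after shCon or shCr EVs. Ctsc, cathepsin C, fell after shCon EVs (1.32, 1.36 and 1.08 against 2.20, 1.83 and 1.77 CPM; log2 fold change -0.62, SE 0.21, adjusted p = 0.0315), as did Wdr45b, a relative of Wipi1 (56.4, 57.8 and 58.0 against 73.6, 66.2 and 69.9 CPM; log2 fold change -0.28, SE 0.10, adjusted p = 0.0339), which rose after CrOE EVs (0.33, SE 0.10, adjusted p = 0.00656). Acp5, the tartrate-resistant acid phosphatase of osteoclasts, was lower after shCr EVs (-1.16, SE 0.38, adjusted p = 0.0306) and CrOE EVs (-2.36, SE 0.45, adjusted p = 0.000345), with 2 to 11 counts a library in the groups compared.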
